A study of Mus musculus with 36 samples.

Results

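Prostaglandin E2 (PGE2) is made and sensed by a short chain of gene products, and 10 genes of that chain were read out in the mouse fibroblast-like chondrocyte time course of the response to interleukin-1β (IL-1β). They were chosen by symbol, as Pla2g4a, Ptgs1, Ptgs2, Ptges, Ptges2, Ptges3, Ptgis, Hpgd, Ptger2 and Ptger4, and all 10 were found among the 53421 genes of the count table. The cells were a wild-type, immortalised mouse chondrocyte line that the submitters describe as fibroblastic. They were transfected with 50 nM, per the labels, of either a non-targeting siRNA pool (NT) or a pool against Ift88 (IFT88siRNA), which encodes an intraflagellar transport protein needed to build the primary cilium. The methods of the study give a lower siRNA concentration than the labels, and which was used could not be settled. After transfection the cells were left in medium only (0 h) or exposed to IL-1β at 10 ng/ml and harvested after 1, 2, 4, 8 and, last, 24 h. Each of the 12 conditions had 3 libraries, which makes 36. The study asked whether IFT88 depletion changes the response to this inflammatory cytokine. The line is a single line, every cell had received an siRNA pool, and no library was made from cells held in medium only beyond 0 h, so time in culture and time in IL-1β cannot be told apart.

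PGE2 is a lipid mediator of pain and swelling in inflamed joint tissue. Cytosolic phospholipase A2 (Pla2g4a) releases arachidonic acid from membranes, and the cyclooxygenases COX1 (Ptgs1) and COX2 (Ptgs2) turn it into prostaglandin H2, which terminal synthases convert into single prostanoids. Ptges, Ptges2 and Ptges3 encode the microsomal and cytosolic PGE synthases, Ptgis encodes prostacyclin synthase, which draws on the same substrate, Hpgd encodes the dehydrogenase that inactivates PGE2, and Ptger2 and Ptger4 encode the EP2 and EP4 receptors, which couple to cAMP. COX2 is the textbook cytokine-inducible cyclooxygenase, and COX1 is regarded as the constitutive form.

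Library depth ran from 19337022 to 38304127 assigned reads, and the IFT88siRNA arm was sequenced more deeply, with a median of 25873754 over its 18 libraries against 21672803 over the 18 of NT. Ift88 itself stood at 22.9% to 36.1% of NT over the 6 time points, with a largest adjusted p of 0.0019, which checked the labels. All 8 fibroblast markers had a median over 1 TPM, the transcript abundance per length and per library that the authors deposited, against 5 of 8 chondrocyte markers, with Acan at a median of 0.044 TPM, Col9a1 at 0 and Matn1 at 0.12. The cartilage label is thus carried by Sox9, Comp, Col2a1, Col11a2 and Hapln1, and the transcript of the main cartilage proteoglycan, Acan, was near 0. Among markers of other cells, 2 of 7 for leukocytes and 0 of 4 for endothelium had a median over 1 TPM. So did 1 of 4 for epithelium and 2 of 4 for osteoblasts. Those of leukocytes were Cd68 at 6.66 and Lyz2 at 2.52 TPM, while Ptprc and Adgre1 lay at 0.038 and 0. Those of osteoblasts were Runx2 at 20.1 TPM, above Sox9 at 11.6, and Bglap at 1.93, and that of epithelium was Cdh1 at 1.52. Their part in the results below was not tested.

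The 10 genes lie on 6 mouse chromosomes. Pla2g4a and Ptgs2 are 138.7 kb apart on chromosome 1, with the antisense gene Ptgs2os between them. Positions are given on GRCm38, the build of the files, from the GENCODE annotation of that build. For the 4 genes that rose together in pairs, Ptgs2 with Ptger4 early and Ptges with Ptges2 late, the 250 bases before the RefSeq start are printed from RefSeq (GRCm38.p6), which held promoter records for 9 of the 10 genes. The RefSeq start of Ptges lies inside the longer gene that GENCODE annotates. Capitals mark every match to any of the 6 motifs searched on both strands, and in the stretches printed only the GC box and the E-box were met.
Ptgs2, chr1:150099781-150100030, plus strand: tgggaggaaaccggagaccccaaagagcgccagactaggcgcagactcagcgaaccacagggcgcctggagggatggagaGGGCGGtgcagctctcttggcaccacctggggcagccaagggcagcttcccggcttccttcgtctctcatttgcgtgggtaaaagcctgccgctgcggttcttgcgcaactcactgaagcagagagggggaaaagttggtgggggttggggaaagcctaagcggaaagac
Ptger4, chr15:5244188-5244437, minus strand: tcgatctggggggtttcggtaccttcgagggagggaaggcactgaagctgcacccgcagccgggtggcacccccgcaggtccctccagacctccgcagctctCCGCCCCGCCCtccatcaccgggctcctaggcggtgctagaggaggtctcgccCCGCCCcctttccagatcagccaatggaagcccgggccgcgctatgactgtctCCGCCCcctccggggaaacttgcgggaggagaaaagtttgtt
Ptges, chr2:30903298-30903547, minus strand: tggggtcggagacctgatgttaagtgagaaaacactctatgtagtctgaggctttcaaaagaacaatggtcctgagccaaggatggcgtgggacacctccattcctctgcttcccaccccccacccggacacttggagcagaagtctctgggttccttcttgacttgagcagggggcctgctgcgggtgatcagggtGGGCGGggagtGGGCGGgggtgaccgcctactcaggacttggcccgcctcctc
Ptges2, chr2:32395640-32395889, plus strand: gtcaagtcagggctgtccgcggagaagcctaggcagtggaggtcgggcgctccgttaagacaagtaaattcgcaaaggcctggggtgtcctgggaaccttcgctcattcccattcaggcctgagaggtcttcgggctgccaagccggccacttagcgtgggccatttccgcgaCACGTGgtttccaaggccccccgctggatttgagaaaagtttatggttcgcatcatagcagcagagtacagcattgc
The GC box, GGGCGG on either strand, was met in 1 place in Ptgs2, 4 in Ptger4 (a pair of them sharing a base) and 2 in Ptges, and it is held by 35.66% of all 32851 promoter records of 300 bases. The E-box, CACGTG, lay 77 to 72 bases before the start of Ptges2 and at bases 17 to 22 after the start of Ptgs2, outside the stretch printed, against 7.15% of all records with a match. No match to a TATA box (TATAAA, 13.62% of records), a cAMP response element (TGACGTCA, 1.79%), an AP-1 site (TGANTCA, 7.81%) or a kappa-B-like site (GGGANNNNCC, 20.73%) was met in the 300-base windows of these 4 genes. That says only that those letters are not in these windows. In the annotated 3′ end of the transcript beyond the stop codon, the pentamer ATTTA, known from unstable mRNAs, was counted 14 times in Ptgs2, 6 times in Ptger2, 5 times in Ptger4, 4 times in Pla2g4a, Ptges2, Ptges3 and Hpgd, and not at all in Ptgs1, Ptges and Ptgis. As many as 14 were held by 2.95% of 21849 genes, whose median was 1. Per kb of that stretch Pla2g4a, with 8.97, exceeded Ptgs2, with 5.72, and as many per kb were held by 0.968% and 4.39% of genes with at least 100 such bases.

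Levels are set side by side per length first, in the TPM values deposited by the authors. In NT cells at 0 h Ptges3 led with 264 ± 9.29 TPM (SD, n = 3), followed by Pla2g4a at 44.0 ± 0.690, Ptgis at 38.7 ± 1.23, Ptgs2 at 22.5 ± 0.531, Ptgs1 at 21.1 ± 2.604, Ptges2 at 14.7 ± 0.328, Hpgd at 8.13 ± 0.578, Ptger4 at 4.36 ± 0.369 and Ptges at 2.89 ± 0.442 TPM. By TPM, Ptgs2 and Ptgs1 did not differ there beyond their spread. The other neighbours in this order stood apart by more than their SDs. The order depends on the measure, however. By reads scaled to library size per kb of exon, Ptgs2 (10.6) lay above Pla2g4a (9.90) and Ptgs1 (6.50) in NT cells at 0 h. Ptgis (15.5) also lay above Pla2g4a, and Hpgd (3.77) above Ptges2 (1.88). Ptger2 was near the limit of detection, with 0 to 9 reads in each library and 89 reads over all 36. Its highest condition mean in NT cells was 0.175 ± 0.0551 TPM, at 8 h. A count of 0 allows up to 3 reads, which is 0.0720 to 0.170 CPM (reads scaled to library size) depending on the library, so no difference in Ptger2 between conditions was read from these data. Its exons also share 246 bases with the antisense gene Gm17173. At 4 h in IL-1β Ptgs2 had taken the first place in NT cells with 337 ± 16.8 TPM, ahead of Ptges3 at 234 ± 4.98 TPM.

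**Figure D1:**
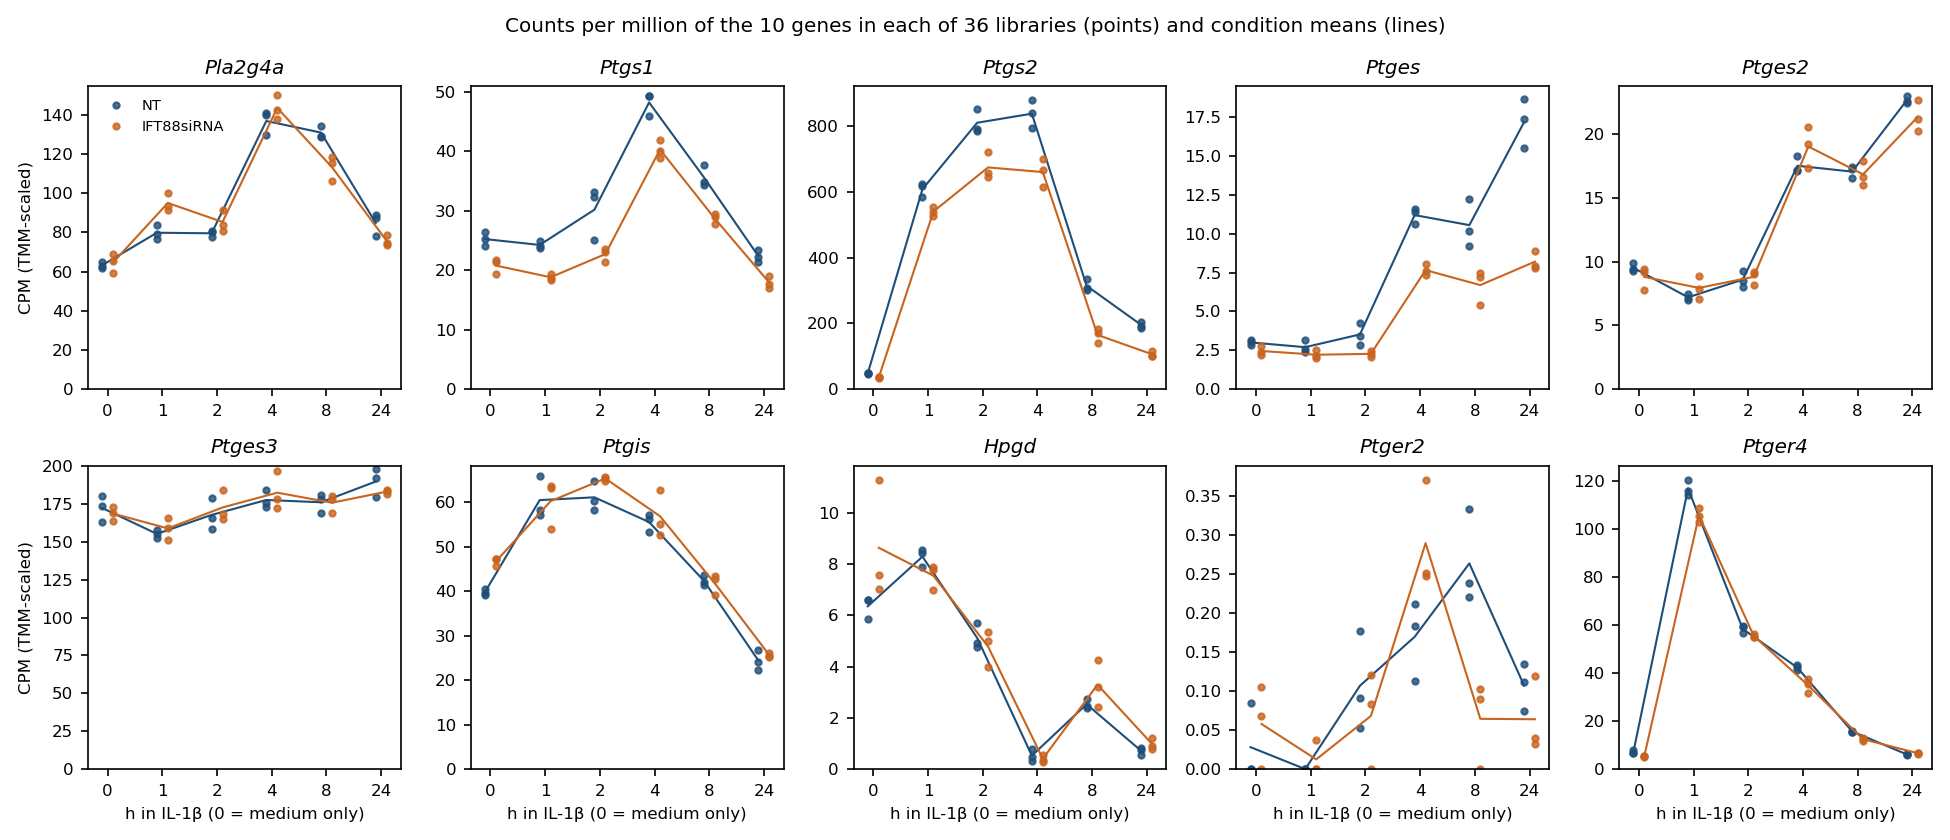
Reads scaled to library size (CPM, with TMM factors) for each of the 10 genes, against hours in IL-1β. Points are the 36 libraries, lines join the means of 3 libraries, and blue marks NT and orange IFT88siRNA. Ptgs2 and Ptger4 peak within 4 h, Ptges and Ptges2 are highest at 24 h, Hpgd is lowest at 4 h, and the orange Ptgs2 and Ptges points lie below the blue at 8 and 24 h.

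In NT cells the PGE2 genes changed in steps over the hours in IL-1β. The COX2 and EP4 transcripts were high at 1 h, and the Ptges and Ptges2 synthase transcripts were called higher from 4 h. The transcript of the PGE2-inactivating enzyme Hpgd was called lower from 4 h. Ptges3, the most abundant synthase transcript, was called at no time. A change was called at an adjusted p under 0.05 and a fold change over 1.5, in edgeR with Benjamini-Hochberg adjustment over all genes tested, and 9 of the 10 genes passed the filter on low counts, Ptger2 being the exception. Of these 9, 3 were called at 1 h, 3 at 2 h, 7 at 4 h, 6 at 8 h and 5 at 24 h. Over all 16048 genes tested, 18.7% were called at 1 h, 27.3% at 2 h, 28.7% at 4 h, 19.7% at 8 h and 16.3% at 24 h. All 5 comparisons share the 0 h libraries. Nothing in the labels says that the 3 libraries of a condition came from separate cultures, so p-values measure only the spread between these samples, which may be technical.

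Ptgs2 (ENSMUSG00000032487, chr1:150100031-150108227, plus strand) had the highest reads of the set. Its 3 NT libraries read 48.8, 47.5 and 48.8 CPM at 0 h and 585, 616 and 622 at 1 h. They read 792, 784 and 853 CPM at 2 h and 794, 879 and 838 at 4 h. They then read 335, 306 and 302 CPM at 8 h and 205, 193 and 187 at 24 h. Every library in IL-1β lay above every library at 0 h, and the plateau at 2 and 4 h was followed by a fall that left the level above baseline at 24 h. The fold change was 12.6 at 1 h, 16.7 at 2 h, 17.4 at 4 h, 6.52 at 8 h and 4.04 at 24 h, with standard errors of 0.054 to 0.057 on the log2 scale and adjusted p of 9.8e-20 or smaller. Per length by TPM, Ptgs2 went from 1.08 ± 0.115 times the Ptgs1 level at 0 h to 15.8 ± 0.274 times at 1 h and 9.75 ± 0.202 times at 4 h in the same NT libraries, and was still at 5.33 ± 0.375 times at 24 h.

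Ptgs1 (ENSMUSG00000047250, chr2:36230426-36252272, plus strand) was not flat. Its NT libraries read 26.4, 24.1 and 25.2 CPM at 0 h and 49.3, 49.4 and 46.0 CPM at 4 h, without overlap. This 1.92-fold rise at 4 h was the only call for Ptgs1 (adjusted p = 6.7e-11). At 8 h the fold change of 1.42 fell short of 1.5 with an adjusted p of 4.7e-06, and at 24 h the level was 0.885 times that at 0 h. The 2 h libraries disagreed among themselves, at 33.2, 25.1 and 32.3 CPM.

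Pla2g4a (ENSMUSG00000056220, chr1:149829618-149961290, minus strand), which supplies the substrate, was called higher at 4 h, as was Ptgs1. Unlike Ptgs1, it was also called at 8 h and lay above baseline at 24 h. In NT cells the libraries read 62.0, 64.7 and 63.0 CPM at 0 h, 140, 141 and 130 at 4 h, and 134, 129 and 129 at 8 h. It was called at those later times, with fold changes of 2.17 and 2.07, and stood at 1.26 at 1 h, 1.25 at 2 h and 1.34 at 24 h, under the fold threshold. By CPM the NT means of the 3 genes that open the pathway were all at their highest at 4 h, above 0 h without overlap. The 4 h libraries overlapped those at 8 h for Pla2g4a and those at 2 h for Ptgs2. By TPM Pla2g4a was higher at 8 h, at 87.6 ± 1.14, than at 4 h, at 82.8 ± 0.945, so a shared peak at 4 h depends on the measure.

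Ptges (ENSMUSG00000050737, chr2:30889471-30929863, minus strand), the inducible microsomal synthase, came later than Ptgs2. The 3 NT libraries read 2.83, 3.05 and 3.15 CPM at 0 h, and 2.40, 2.56 and 3.15 at 1 h, a range that overlapped the baseline. They read 10.6, 11.6 and 11.4 CPM at 4 h, 12.2, 9.21 and 10.2 at 8 h, and 18.7, 17.4 and 15.5 at 24 h. Each of these lay above every 0 h library. Fold changes were 0.898 at 1 h and 1.17 at 2 h, neither called, then 3.74 at 4 h, 3.502 at 8 h and 5.69 at 24 h, all called with adjusted p of 2.6e-11 or smaller. These are low levels, of 45 to 499 reads in a library.

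Ptges2 (ENSMUSG00000026820, chr2:32395896-32405772, plus strand), a second membrane-associated synthase, rose with Ptges from 4 h. Its NT libraries read 9.88, 9.44 and 9.26 CPM at 0 h, 17.1, 17.2 and 18.3 at 4 h, and 22.4, 22.6 and 23.0 at 24 h. Called fold changes were 1.85 at 4 h, 1.79 at 8 h and 2.38 at 24 h, while at 1 h the level was 0.755 times that at 0 h with an adjusted p of 0.000114, short of the fold threshold. On the TPM scale the 4 h call of Ptges2 was lost, at a log2 change of 0.48.

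Ptges3 (ENSMUSG00000071072, chr10:128058954-128077272, plus strand), the cytosolic synthase that is also the HSP90 co-chaperone p23, stayed within 0.899 to 1.10 times its 0 h level and was called at no time in NT cells, with adjusted p of 0.0123 at 1 h and 0.0234 at 24 h. Across the 18 NT libraries it ran from 152 to 198 CPM. A processed pseudogene, Ptges3-ps on chromosome 6, held about 44.9 to 57.0 CPM in the NT means, and reads shared between the near-identical copies could make the level of Ptges3 uncertain. By TPM the share of Ptges in the sum of the 3 synthase genes was 1.02 ± 0.121% at 0 h, 2.76 ± 0.0891% at 4 h and 4.22 ± 0.650% at 24 h in NT cells.

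**Figure D2:**
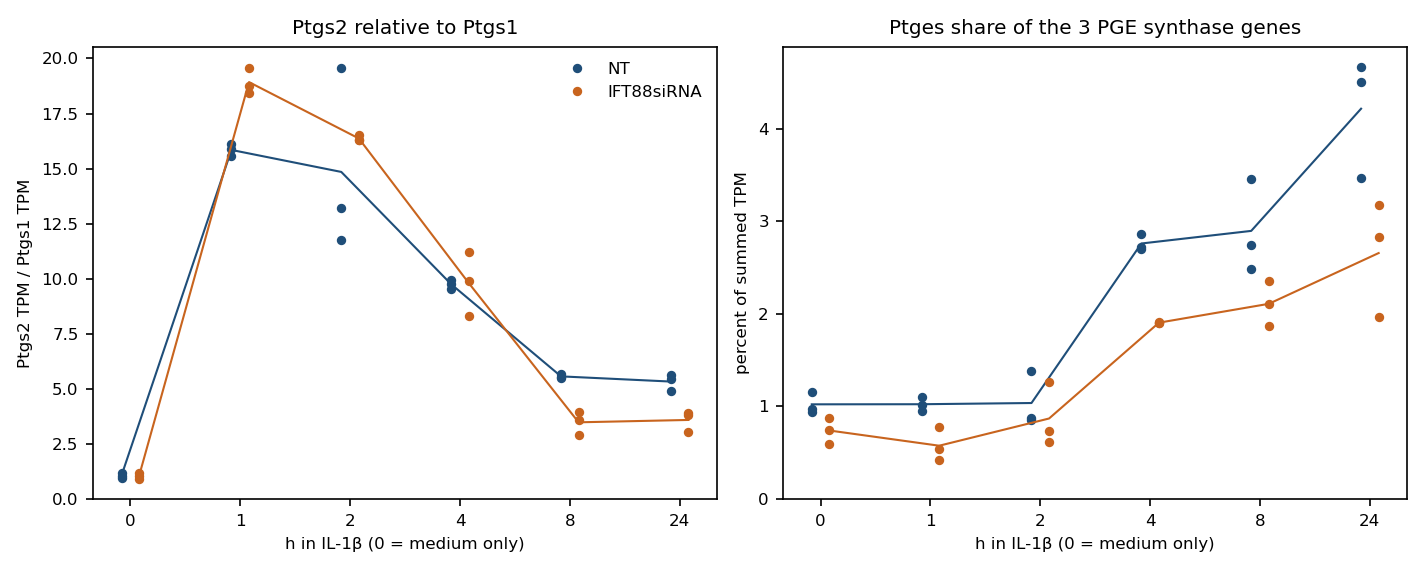
Ratios of TPM within each library against hours in IL-1β, with points for the 36 libraries and lines for the means of 3, NT in blue and IFT88siRNA in orange. On the left, the Ptgs2 level over the Ptgs1 level starts near 1.08 in NT cells and reaches 15.8 at 1 h, and 3 NT libraries at 2 h scatter from 11.7 to 19.6. On the right, the percentage of Ptges in the sum of Ptges, Ptges2 and Ptges3 climbs from 4 h, with higher NT than IFT88siRNA means at every time.

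Ptgis (ENSMUSG00000017969, chr2:167191805-167240604, minus strand), which diverts prostaglandin H2 to prostacyclin, was called higher early and lower at 24 h. Its libraries in NT read 40.6, 39.7 and 39.1 CPM at 0 h, 66.0, 57.1 and 58.3 at 1 h, and 64.7, 60.3 and 58.2 at 2 h. They then read 57.2, 53.2 and 56.1 CPM at 4 h, 43.6, 42.1 and 41.3 at 8 h, and 26.7, 24.1 and 22.3 at 24 h. The libraries from 1 to 8 h all lay above and the 24 h libraries all below the baseline. Called fold changes were 1.51 at 1 h, 1.53 at 2 h and 0.612 at 24 h. At 4 h it stood at 1.40 with an adjusted p of 2.2e-07, short of the fold threshold, and at 8 h at 1.07 with 0.22. The early calls sat on the threshold. Without NT replicate 1 at 1 h the fold call at 1 h was lost, at a log2 change of 0.54, without replicate 1 at 2 h that at 2 h was lost, at 0.58, and on the TPM scale both were lost, at 0.41 and 0.30. Per length, Ptgs2 stood at 0.582 ± 0.0164 times Ptgis at 0 h and 7.65 ± 0.603 times at 4 h in NT cells.

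Hpgd (ENSMUSG00000031613, chr8:56294585-56321043, plus strand) showed the deepest fall of the set. NT libraries of this gene read 6.59, 5.85 and 6.60 CPM at 0 h, 7.90, 8.54 and 8.41 at 1 h, 4.90, 5.69 and 4.75 at 2 h, then 0.793, 0.459 and 0.319 at 4 h, 2.38, 2.47 and 2.74 at 8 h, and 0.561, 0.817 and 0.745 at 24 h. The 1 h libraries all lay above the baseline and those from 2 h on all lay below it, and 8 h was a partial return between lower values at 4 and 24 h. At 2 h the fold change was 0.805 with an adjusted p of 0.0306, short of the fold threshold. Fold changes were 0.0825 at 4 h, 0.402 at 8 h and 0.113 at 24 h, called with adjusted p of 1.15e-08 or smaller. The 4 h value rests on 14, 10 and 6 reads, against 156, 142 and 149 at 0 h.

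Ptger4 (ENSMUSG00000039942, chr15:5206661-5244187, minus strand) had the sharpest peak. For NT the libraries read 6.63, 6.55 and 7.76 CPM at 0 h, 114, 116 and 121 at 1 h, and 56.6, 59.1 and 59.5 at 2 h. They then read 41.2, 42.4 and 43.2 CPM at 4 h, 16.1, 15.5 and 15.6 at 8 h, and 6.20, 6.20 and 5.92 at 24 h. From 1 to 8 h all libraries lay above the baseline, and by 24 h all lay just under it. Fold changes were 16.7, 8.36, 6.10 and 2.26 at 1, 2, 4 and 8 h, all called, and 0.877 at 24 h with an adjusted p of 0.0781. EP4 transcript was therefore near its unstimulated level at the time when Ptges was highest. Over the 12 condition means in log2 CPM, Ptger4 correlated with Ptgs2 at r = 0.86 and Ptges with Ptges2 at 0.94. Hpgd correlated with Ptges at -0.86, and Ptgs2 with Ptges at 0.06. Such values were not particular to these pairs. Ptges3, called at no time, correlated with Ptges2 at 0.90 and with Ptges at 0.81. Hpgd correlated with Ptges2 at -0.89, and Ptgis with Ptger4 at 0.82. All are a description across conditions that share libraries and cells.

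The counting carries limits for some of these genes. Read counting with default settings uses no strand, and Ptger4 shares 82 exonic bases with Ttc33 and 1015 with the pseudogene Gm15937 on the opposite strand, Ptgs1 shares 148 with Gm43621, and Ptgis shares 156 with 1110018N20Rik. Ptgs2os, an antisense transcript, begins 67 bases before Ptgs2 without overlap and read 2.25 ± 0.133 CPM at 0 h and 8.54 ± 0.644 at 4 h in NT cells, far under Ptgs2.

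IFT88siRNA cells were compared with their own 0 h libraries, and Ptgs2 and Ptger4 were called higher from 1 h and Ptges and Ptges2 from 4 h. Of the 9 genes tested, 2 were called at 1 h, 3 at 2 h, 7 at 4 h, 6 at 8 h and 5 at 24 h, where 15.1%, 25.6%, 29.3%, 17.6% and 14.2% of all 16129 genes tested were called. Ptgs2 libraries read 36.7, 33.2 and 36.02 CPM at 0 h, 698, 616 and 665 at 4 h, 183, 141 and 171 at 8 h, and 115, 102 and 102 at 24 h. All libraries in IL-1β lay above those at 0 h, with fold changes of 15.3, 19.1, 18.7, 4.66 and 3.0 at the 5 successive times. Ptger4 rose 19.8-fold at 1 h, 10.4-fold at 2 h, 6.52-fold at 4 h and 2.33-fold at 8 h, and at 24 h stood at 1.24 times baseline with an adjusted p of 0.0061, short of the fold threshold. Ptges was called at 4 h (3.11-fold), 8 h (2.70-fold) and 24 h (3.32-fold), and Ptges2 at 2.16, 1.91 and 2.43-fold. Pla2g4a rose 2.22-fold at 4 h and 1.75-fold at 8 h, and Ptgs1 1.94-fold at 4 h. Hpgd was called at 2 h (0.554), 4 h (0.0464), 8 h (0.381) and 24 h (0.116), from baseline libraries of 11.3, 7.03 and 7.58 CPM, of which replicate 1 was the high one. Ptgis was called at 24 h alone, at 0.548 times baseline, with 1.29 at 1 h and 1.40 at 2 h. Ptges3 was called at no time, with fold changes from 0.940 to 1.09.

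**Figure D3:**
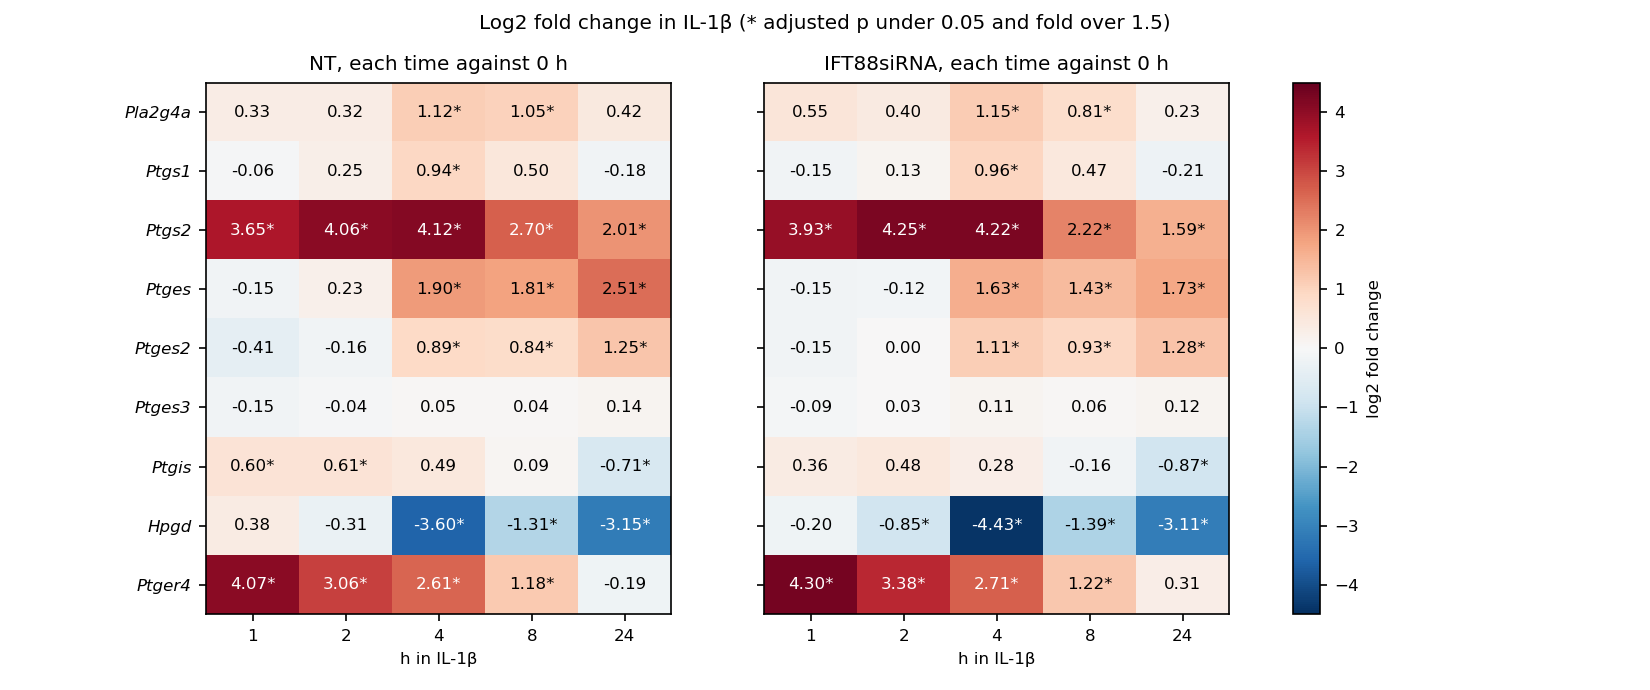
Log2 fold change of each gene in IL-1β against 0 h, for NT on the left and IFT88siRNA on the right, with a column for each of the 5 times and colour from blue (lower) to red (higher). An asterisk marks an adjusted p under 0.05 with a fold over 1.5. Both arms show red in Ptgs2 and Ptger4 from 1 h, red in Ptges and Ptges2 from 4 h and blue in Hpgd, deepest at 4 and 24 h, and Ptger2 is absent because it was not tested.

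Between siRNA pools at the same time point, IFT88siRNA cells held less Ptgs2 and Ptges transcript late in the course, and no other gene of the 9 was called. Of the genes tested 2 were called at 8 h and 2 at 24 h, both times Ptgs2 and Ptges, where 0.692% and 1.15% of all genes were called. None was called by edgeR at 0, 1, 2 and 4 h, where 2.23%, 2.66%, 0.496% and 0.432% of all genes were called, although 5, 4, 1 and 4 of them had an adjusted p under 0.05 at a smaller fold, as had 19.5%, 19%, 2.76% and 3.85% of all genes. At an unadjusted p under 0.05 there were 5, 4, 3 and 4 of them, beside 32.1%, 32.4%, 17.2% and 17.9% of all genes. DESeq2 also called 0 at these times. Hpgd did not pass the filter on low counts at 4 h, so 8 genes were tested there.

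For Ptgs2 at 8 h the NT libraries read 335, 306 and 302 CPM and the IFT88siRNA libraries 183, 141 and 171, and at 24 h they read 205, 193 and 187 against 115, 102 and 102. The groups did not overlap at any of the 6 times, and IFT88siRNA was the lower at each. How many of all genes lay apart in this way was not counted, in this or any other comparison here. The ratio of IFT88siRNA to NT was 0.730 at 0 h, 0.884 at 1 h, 0.830 at 2 h and 0.785 at 4 h, with adjusted p of 1.6e-06, 0.0041, 0.024 and 0.0025, all short of a 1.5-fold change. It was 0.519 at 8 h (adjusted p = 0.000193) and 0.541 at 24 h (adjusted p = 1.9e-07).

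For Ptges at 8 h the NT libraries read 12.2, 9.21 and 10.2 CPM against 7.44, 7.23 and 5.41 in IFT88siRNA. At 24 h they read 18.7, 17.4 and 15.5 against 8.90, 7.77 and 7.92. The ratio was 0.626 at 8 h (adjusted p = 0.0226) and 0.474 at 24 h (adjusted p = 2.1e-06). At 4 h it was 0.679 with an adjusted p of 0.0045, at 2 h 0.640 with 0.091, and at 0 and 1 h 0.818 and 0.820 with 0.18 and 0.28. The groups overlapped at 1 of the 6 times. The 8 h call was lost on leaving out any of 4 of the 6 libraries, with the log2 change then between -0.74 and -0.54, these being NT replicates 1 and 3 and IFT88siRNA replicates 2 and 3. On the TPM scale Ptges was called at neither 8 nor 24 h, by limma, with log2 changes of -0.43 and -0.70. It was called at 24 h in each fit that left out a library.

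Ptgs1 was lower in every IFT88siRNA library than in every NT library at all 6 times, by a ratio of 0.752 to 0.832, with an adjusted p under 0.05 at each time except 2 h, where it was 0.0503. Of all genes 4.25% at 8 h and 8.66% at 24 h had an adjusted p under 0.05, and the shares at earlier times are given above. Ptgs1 was never called, because the fold stayed under 1.5. At 0 h the libraries read 26.4, 24.1 and 25.2 CPM in NT and 21.4, 21.7 and 19.3 in IFT88siRNA. Ptger4 was lower at 0 h (0.766, adjusted p = 0.0117), 1 h (0.899, 0.0153), 4 h (0.821, 0.0247) and 8 h (0.784, 0.0342), with groups that did not overlap at 5 of the 6 times. At 24 h they overlapped, at a ratio of 1.08. Pla2g4a stood at 1.18 at 1 h (adjusted p = 0.0019) and 0.855 at 8 h (0.0328).

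The remaining genes were not called between the arms. Ptges2 and Ptges3 overlapped at all 6 times. At 0 h the ratio with its nominal 95% interval was 0.923 (0.815 to 1.05) for Ptges2 and 0.978 (0.921 to 1.04) for Ptges3. Ptgis was at 1.17 at 0 h (adjusted p = 0.0019) and between 0.975 and 1.07 later. Hpgd was at 1.36 at 0 h (adjusted p = 0.0239), a difference that includes the high IFT88siRNA replicate 1, and its groups overlapped at 4 of the 6 times. Its ratio was 1.28 at 8 h (nominal 95% interval 0.970 to 1.69) and 1.39 at 24 h (0.969 to 2.0). These data thus leave room for a difference.

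Markers of cell type also differed between the pools. At 0 h, 4 of the 6 chondrocyte markers tested were called, with Sox9 at 1.53 and Comp at 1.52 times NT, and Col2a1 at 0.588 and Col11a2 at 0.598. So were 1 of 8 fibroblast markers (Col3a1, 1.64) and 2 of 3 leukocyte markers (Fcgr1, 0.436, and Lyz2, 1.56), where 2.23% of all genes were called. Only 3 of the 7 leukocyte markers listed passed the filter. The 2 called went opposite ways, and Fcgr1 had a median of only 0.22 TPM. Col2a1 stayed lower at 1 h (0.623), 2 h (0.649) and 4 h (0.666). At 8 h 0 of 5 chondrocyte and 0 of 8 fibroblast markers were called by edgeR, beside 0.692% of all genes. At 24 h 2 of 5 chondrocyte markers were higher, Sox9 (1.67) and Comp (1.82), and 1 of 8 fibroblast markers was lower, Dcn (0.623), beside 1.15% of all genes. Their part in the differences of the PGE2 genes was not tested.

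**Figure D4:**
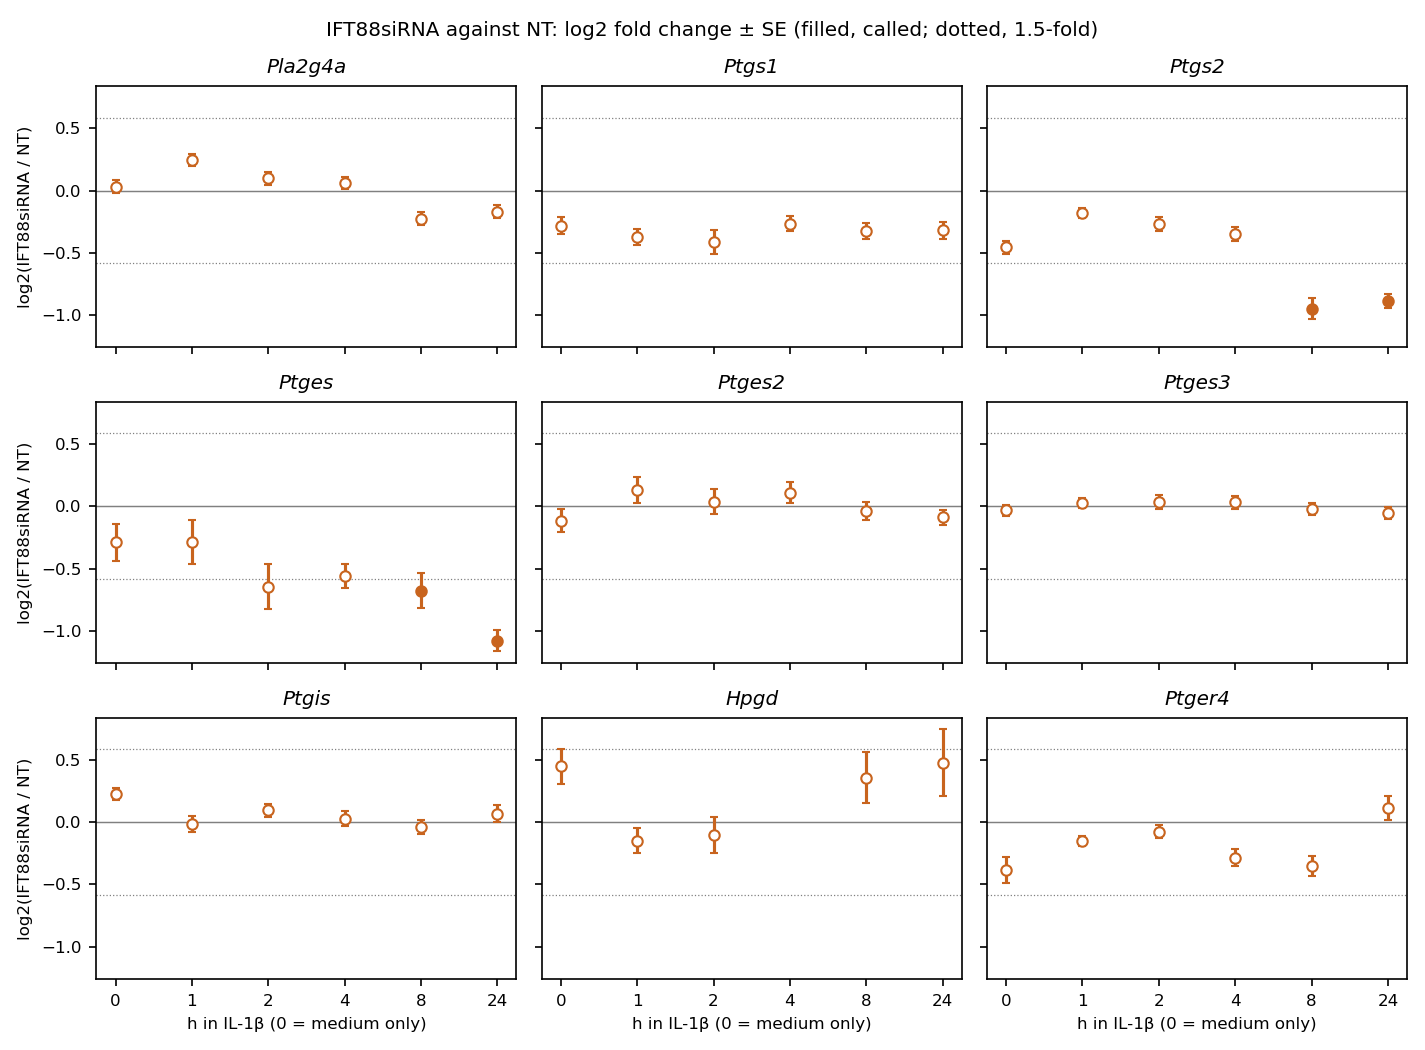
Log2 ratio of IFT88siRNA to NT for 9 genes at 0, 1, 2, 4, 8 and 24 h in IL-1β, with bars for 1 standard error from the edgeR fit of 3 against 3 libraries at that time. Filled points were called, and dotted lines mark a 1.5-fold change. Filled points appear only for Ptgs2 and Ptges at 8 and 24 h, and Hpgd has no point at 4 h because it was not tested there.

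Because Ptgs2 was lower at 0 h as well, the change from 0 h was compared between the arms in a fit of all 36 libraries. No gene of the 9 was called at any time by edgeR, where 0.598%, 0.245%, 0.311%, 0.275% and 0.132% of all 16710 genes were called at the 5 successive times. At an unadjusted p under 0.05 there were 5, 2, 2, 3 and 4 of the 9, beside 13%, 11.7%, 11.5%, 9.77% and 7.1% of all genes. Without the fold threshold, 0 genes at 1, 2 and 4 h, 1 at 8 h and 2 at 24 h had an adjusted p under 0.05. Over all genes the shares were 2.37%, 1.24% and 1.18% at 1, 2 and 4 h, 0.993% at 8 h and 0.341% at 24 h. At 8 h the fold change of Ptgs2 from 0 h in IFT88siRNA was 0.718 times that in NT. Its nominal 95% interval was 0.627 to 0.823, with an adjusted p of 0.0077. At 24 h the ratio was 0.743 (0.648 to 0.852, adjusted p = 0.0435). At 1, 2 and 4 h that ratio of changes was 1.22, 1.14 and 1.08, with adjusted p from 0.149 to 0.771. Ptger4 had a ratio of 1.42 at 24 h (1.22 to 1.65, adjusted p = 0.0275), where NT had gone to 0.877 and IFT88siRNA to 1.24 times its own 0 h level. For Ptges at 24 h the ratio was 0.582 (0.448 to 0.755, adjusted p = 0.0658), and at 8 h 0.774 (0.591 to 1.01). DESeq2 called 0 genes of the set up to 8 h and 1 at 24 h, which was Ptges, with an adjusted p of 0.0474.

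Other genes around PGE2 were read from lists in NT cells, and the counts at 4 h give their scale, beside a median log2 change of -0.02 over all genes and 28.7% of them called, 2608 higher and 1994 lower of 16048. With so few genes in a list, nothing particular to a list is read from its count. Of 13 tested genes of arachidonate release and handling, 5 rose and 2 fell (median 0.56), with Acsl4, which activates arachidonate, at 3.41-fold and Anxa1, which encodes annexin A1, at 2.92-fold. Of 5 other prostanoid synthases and related reductases 3 rose and 0 fell (median 0.74), with the aldose reductase gene Akr1b3 at 1.68-fold at 4 h and 2.01-fold at 8 h. In prostaglandin transport and breakdown 2 of 6 rose and 0 fell (median -0.03), being the transporter genes Slco2a1 at 7.08-fold and Slco3a1 at 3.99-fold. Slco2a1, the prostaglandin uptake carrier, had first fallen to 0.546 times baseline at 1 h. Its NT libraries read 24.6, 20.7 and 21.2 CPM at 0 h and 165, 148 and 155 at 4 h.

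Of 5 other prostanoid receptors tested, 2 rose and 1 fell at 4 h (median 0.25), and Ptgfr, the prostaglandin F receptor, stood at 2.77-fold at 4 h and 5.08-fold at 8 h. In the lipoxygenase branch 2 of 7 rose and 3 fell (median -0.13), the leukotriene B4 receptor genes Ltb4r1 and Ltb4r2 being at 0.223 and 0.233 times baseline. In the cAMP arm that EP2 and EP4 feed, 4 of 20 rose and 3 fell (median -0.04), with the phosphodiesterase gene Pde4b at 3.20-fold at 1 h and 3.95-fold at 4 h, Pde4a at 2.03-fold and Crem, a cAMP-response repressor and activator gene, at 2.92-fold, against Adcy9 at 0.497 and Prkar2b at 0.465. Between siRNA pools each of these 6 lists had 0 or 1 gene called at any time, where 0.432% to 2.66% of all genes were called, and so did the difference in response, where 0.132% to 0.598% were. Ptgfr was the receptor called at 0 h (2.18-fold higher in IFT88siRNA) and at 24 h (0.607), and its change from 0 h differed between arms at all 5 times, by a ratio of 0.463 at 1 h to 0.279 at 24 h. The others were Pla2g4c, Ptgir and Adcy7 at 1 h, Pla2g4e at 4 h, Akr1c18 at 24 h and, for the difference in response, Rapgef4 at 8 h, all named after their values were seen.

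Likeness of pattern was measured by the Pearson correlation of log2 CPM over the 12 condition means with each of 16710 genes. Among the genes most like Ptgs2 were Ereg (r = 0.985), AI839979 (0.985), Cxcl2 (0.983) and Spty2d1 (0.979). Those most like Ptges were Slc26a4 (0.976), Gm47336 (0.975), Slc39a14 (0.974), Tmem74 (0.971) and Gm4240 (0.966). By log2(TPM + 1), 2 of the 5 named for Ptges were still among the 5 most alike.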

How the data were processed

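Polyadenylated RNA from the 36 libraries was sequenced in pairs, over 3 lanes per the labels, with no map from library to lane. The deposited counts were made by the authors with HISAT2 2.1.0 on GRCm38 and featureCounts (Subread 1.6.3, default settings, Ensembl annotation). They also deposited TPM from Salmon 0.9.1 with GC-bias correction. Every value column was mapped to a sample by its title. Counts were tested in edgeR 4.0.16 (R 4.3.3) with filterByExpr, TMM scaling and the two-sided quasi-likelihood F-test, in fits of the 18 libraries of an arm, of the 6 libraries of a time point, or of all 36. Benjamini-Hochberg adjustment ran over all genes tested, and calls needed an adjusted p under 0.05 and a fold over 1.5. CPM values use TMM over 36 libraries. Intervals are 1.96 standard errors on the log2 scale. That multiplier ignores the small number of libraries, so the 95% is nominal and the intervals are somewhat too narrow. For Ptges between pools at 0 h the interval was 0.669 to 0.9998, while the F-test gave an unadjusted p of 0.0622. Like the limit for a count of 0 (3 reads), intervals cover no more than the spread or counting error. TPM were tested with limma 3.58.1 on log2(TPM + 1) as an alternative. DESeq2 1.42.0, its size factors, no filter, a replicate block, other TPM settings, all libraries in 1 fit and leaving out each library were also run. On simulated counts with 200 genes changed by 1 log2 unit, the edgeR steps recovered 100%, 100%, 99.5% and 95% for the NT, IFT88siRNA, between-pool and difference comparisons, over 15515, 15938, 15008 and 16191 genes. False calls numbered 5, 1, 5 and 13. The changed genes had a mean of at least 50 counts, and all genes were given the same dispersion, so genes with few reads were not covered.

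The genes named were the 10 members, Ift88, genes of the 6 pathway lists called in NT cells with a fold over 2 and a mean of at least 50 counts, and the 5 genes most like Ptgs2 and like Ptges. A result of that rule for Ptgs2 is not reported here. The members and lists, and the 6 cell type marker lists, were chosen with earlier results of these data known.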

Additional observations from a re-analysis of the deposited data

Results flagged for a closer look

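The change from 0 h differed between IFT88siRNA and NT for Ptgs2 at 8 h, by -0.48 on the log2 scale, in the test of the difference itself. All 7 alternatives kept an adjusted p under 0.05, with log2 differences from -0.52 to -0.47, as did all 12 fits that left out a library. For Ptgs2 at 24 h the difference was -0.43, and 3 of the 7 alternatives and 3 of the 12 leave-out fits kept an adjusted p under 0.05, the largest being 0.136 and 0.164. For Ptger4 at 24 h the difference was 0.50, with an adjusted p under 0.05 in 5 of 7 alternatives and 3 of 12 leave-out fits. None of the 3 reached a 1.5-fold difference. Tests for a single library far from its group were not made, since each group held 3.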

How the results depend on the processing

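In the comparisons of IL-1β with 0 h, the number of genes of the set called stayed within 1.5 times its value under every alternative run. Between siRNA pools at 2 h, the count rose from 0 to 1 with no filter on low counts, with the replicate block and with all 36 libraries in 1 fit, each time through Ptges. At 8 h it fell from 2 to 1 by log2(TPM + 1) and by log2(TPM + 0.1), and to 0 with no filter on TPM. At 24 h it fell from 2 to 1 under all 3 TPM settings. For the difference in response at 24 h it rose from 0 to 1 by DESeq2, with no filter on low counts and with the replicate block, again through Ptges. Leaving out 1 library gave 2 to 3 for NT at 1 h (without NT replicate 1) and at 2 h (without NT replicate 1) and for IFT88siRNA at 1 h (without IFT88siRNA replicate 1 at 0 h). It gave 0 to 1 between pools at 4 h (without NT replicate 1) and for the difference in response at 24 h (without NT replicate 3), and 1 to 2 between pools at 8 h, and the other counts did not move. Of single-gene values under the other alternatives, 1434 gave the same call, 7 gained it and 16 lost it, and 0 reversed. Leaving out libraries gained 3 calls and lost 6. TPM moved the median of all genes by up to -0.22 on the log2 scale in NT, at 2 and 4 h. Relative to that median, Ptges2 at 4 h stood at 0.70 and Ptgis at 1 and 2 h at 0.55 and 0.52. The share of higher calls over all genes went from 47.6% to 26.8% in NT and from 48.4% to 30.9% in IFT88siRNA at 2 h by log2(TPM + 1), from 6.8% to 32.1% between pools at 2 h, and from 12.2% to 26.1% for the difference at 2 h. Counts over all genes between pools moved by more than 1.5 times. DESeq2 called 165, 186, 31 and 109 in place of 341, 393, 64 and 175 at 0, 1, 4 and 24 h. The log2(TPM + 1) fit called 123, 135, 28, 24, 36 and 61 at the 6 times, and TPM with no filter 11 to 75. With no filter on low counts 137, 100 and 245 were called in place of 73, 64 and 105 at 2, 4 and 8 h, and with all libraries in 1 fit 142 and 231 at 2 and 8 h. Leaving out a library gave 22 to 208 at 2 h, 23 to 140 at 4 h and 47 to 583 at 8 h. For the difference in response, no filter on low counts gave 85 in place of 41 at 2 h and 40 in place of 22 at 24 h, and log2(TPM + 1) gave 58 in place of 100 at 1 h. Same-numbered libraries showed little sign of pairing. Their deviations correlated over 0.1 in 0 of 15 pairs in each arm and 2 of 18 between pools. Those 2 were at 0.22 (2 h, replicate 3) and 0.21 (8 h, replicate 1). A correlation over all genes cannot exclude pairing, and the labels do not say whether replicates were separate cultures. The block added Ptges between pools at 2 h (log2 -0.63) and in the difference at 24 h (-0.78), changed no other call of the set, and gave 115 in place of 73 over all genes at 2 h. The order of levels by CPM per kb of exon was the same in 82 of 120 places, with shifts of at most 2. The cause of these changes was not tested.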

Other observations

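Ptgfr, which encodes the receptor for prostaglandin F, was the prostanoid receptor of the lists whose change from 0 h differed between arms at all 5 times, and it was singled out after its values were seen. At 0 h the NT libraries read 1.44, 2.88 and 2.48 CPM and the IFT88siRNA libraries 5.14, 4.57 and 5.11, without overlap. At 24 h they read 9.53, 10.3 and 8.19 CPM against 4.63, 6.12 and 6.05, so the order of the arms at 0 h was turned round at 24 h. The ratio of IFT88siRNA to NT was 2.18 at 0 h (edgeR adjusted p = 4.3e-05) and 0.607 at 24 h (adjusted p = 0.0011). These are low levels, with 34, 70 and 56 reads in the NT libraries at 0 h, which enter every difference in response.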
